A study of Bos indicus with 9 samples.

Results

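The regions described here are the 300 liver domains with the largest summed peak signal, of 7880 liver domains in all. A domain was made by joining liver peaks on chromosomes 1 to 29, starting at or beyond base 1000000, over gaps of at most 12500 bp. Open chromatin was profiled by ATAC-seq, in which the Tn5 transposase cuts accessible DNA, in liver, muscle and hypothalamus of the same 3 post-pubertal, unrelated Brahman (Bos indicus) heifers, giving 3 libraries per tissue and 9 in all. No treatment is named in the labels beyond freezing of the tissues after slaughter. Each tissue has 1 list of peaks, built by the authors from its 3 heifers on the ARS-UCD1.2 build. It gives every peak an AUC, the area under the curve of −log10 p above the calling limit, which serves as its signal, and a −log10 p at its summit. The members were chosen by the liver AUC, so their liver values are given as a description. The values of single heifers are not given, and no difference between tissues could be tested over animals.

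Open chromatin is DNA that a transposase can reach because nucleosomes are absent or loosely held there, as at active promoters and enhancers. Joining nearby peaks and ranking the resulting stretches by their summed signal is the approach that has been used to find super-enhancers, long clusters of enhancers near genes that define a cell type. In liver such genes include those for plasma proteins, lipid transport and the transcription factors of hepatocytes. ATAC-seq peaks alone do not tell a promoter from an enhancer, and they do not show which gene a region acts on.

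The signal was concentrated in few members. The 300 domains held 1284 of the 10465 liver peaks that the rule used (12.3%) and 32.8% of the summed liver AUC. The 10 domains at the top of the ranking held 14.0% of it, and the 50 at the top held 22.2%. The summed AUC of a member ran from 2660 to 223910, with a median of 3569, so the list joins a few very strong domains to a long run of similar ones. The limit of the rule fell in this flat part. The last 3 members were 2 peaks on chromosome 10 (chr10:26666617-26674160) with a sum of 2668, 1 peak at chr3:33095320-33096619 whose nearest annotated gene was the transporter gene SLC16A4, also with 2668, and 3 peaks at chr29:41139997-41158806 with 2660. The first 3 domains outside had sums of 2656 (chr29:45184643-45234933), 2655 (chr11:98449721-98461934) and 2654.

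Most members were small clusters of peaks. A single peak made up 69 members (23.0%), 216 members had 1 to 4 peaks, and 26 members (8.67%) had 10 or more. Outside the members, 84.1% of the domains were single peaks and 0 of 7580 had 10 or more. The median member was 9096 bp long, with quartiles of 1976 and 21076 bp, against a median of 540 bp in the other liver domains. Peaks filled a median of 37.2% of the span of a member, and the strongest peak of a member carried a median of 61.3% of its AUC. The gap between neighbouring peaks of a member was a median of 1452 bp over 984 gaps, and 3380 bp over the 1601 gaps in other domains. The peaks of the members were a median of 631 bp long and those of the other domains 475 bp. All 12 liver peaks of more than 5000 bp lay in members, 11 of which held one. These differences follow in part from the rule, since a sum rises with the number and length of the peaks.

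**Figure D1:**
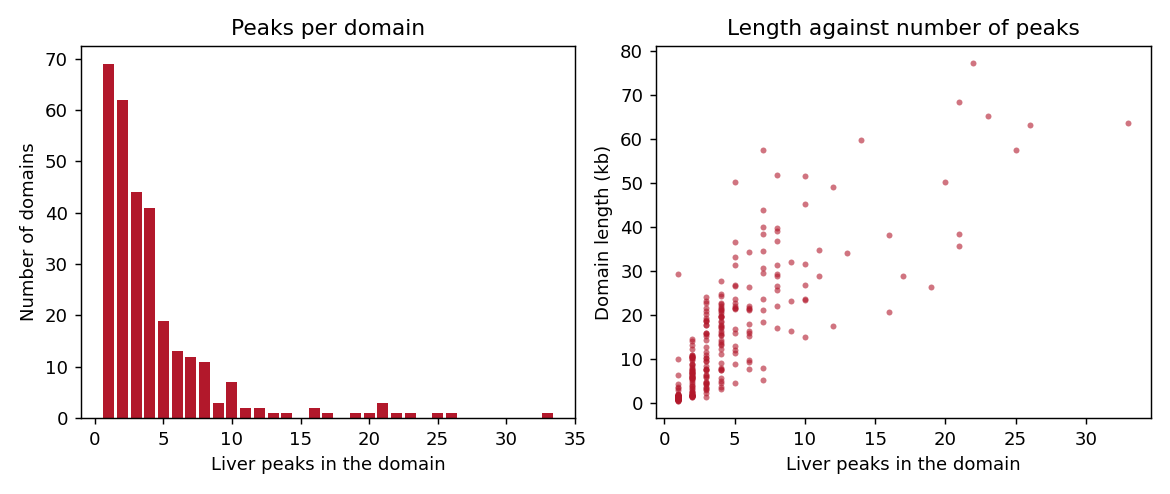
The left panel counts the 300 domains by their number of liver peaks, and the right panel plots the length of each domain in kb against its number of peaks. Domains of 1 peak are the most frequent (69), and the points reach 33 peaks and 77195 bp in different domains.

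The 10 domains with the largest sums lay on chromosomes 2, 6, 8, 16, 21, 23 and 27. The peak caller divided reads that aligned to more than 1 place among those places. The share of such reads is not given per peak, and its part in the sums of these domains was not tested. The first, chr21:32902222-32952346, held 5 peaks with a liver sum of 223910. A single peak of 33425 bp (chr21:32903632-32937056) gave 186135 of that sum. The second lay on the same chromosome at chr21:32983908-33029131 and held 10 peaks with a sum of 194675. Outside chromosomes 1 to 4 gene names are available only for some peaks of a domain, so the gene given as nearest can be that of a minor peak. For both domains it was ODF3L1, which codes for a relative of outer dense fibre proteins of sperm tails. The third, chr6:5432941-5462105, was 1 peak of 29165 bp with an AUC of 176453. The longest peak of the second domain, 14039 bp, gave 58.5% of its sum, and its other 9 peaks were 193 to 3367 bp long.

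The domains ranked 4 and 5 carried an annotated microRNA gene of the same name. The first of them (chr27:6216816-6226226) had 3 peaks, a liver sum of 169346, and the start sites of MIR2887-1 and MIR2887-2. The other (chr2:121566471-121576305) was 1 peak of 9835 bp with an AUC of 153077, and the annotation places a start site of MIR2887-1 there too. The name therefore stands for copies on 2 chromosomes, and the peaks over them cannot be assigned to one copy from the lists.

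The sixth domain (chr21:2042709-2091742) had 12 peaks and a sum of 100268, and all 12 peaks were open in both other tissues. Its nearest annotated gene was SNURF, a gene of the imprinted Prader-Willi locus in other mammals. The seventh (chr6:5777519-5800695) had 9 peaks and a sum of 87187, with its strongest annotated peak in an intron of PDE5A, a phosphodiesterase that degrades cyclic GMP. The eighth (chr16:80999909-81005980) had a sum of 73563, of which 99.4% came from 1 of its 2 peaks, with TNNT2, the cardiac troponin T gene, nearest. The ninth (chr23:21781095-21796222) lay nearest MMUT, the mitochondrial enzyme that turns methylmalonyl-CoA into succinyl-CoA, with 6 peaks and a sum of 41900. The tenth (chr8:10283312-10297134) lay nearest ZNF395 with 4 peaks and a sum of 37921. Apart from the PDE5A intron and the MIR2887 promoters, the strongest annotated peak of each of these domains was distal intergenic where one was annotated. Outside chromosomes 1 to 4 a feature, like a gene name, is known only for peaks that the authors list apart. The paper reports that such liver peaks are mostly intergenic, so these labels do not show where the domains as a whole lie.

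The member with the most peaks, ranked 11, had 33 peaks over chr4:105568916-105632368 and a sum of 34897. Its strongest peak carried 14.9% of the sum, so its AUC was spread along the domain. Its nearest annotated gene was LOC780933, cationic trypsin. The longest member, ranked 26, spanned 77195 bp at chr29:43604519-43681713 near FRMD8, with 22 liver peaks and a sum of 18963. Its summed AUC was 128880 in hypothalamus and 109575 in muscle, in lists whose AUC is not scaled to that of liver. The hypothalamus AUC was 6.80 times its liver sum, beside a median of 6.82 over all members. The muscle AUC was 5.78 times its liver sum, beside a median of 2.08, so only the muscle ratio was above that of a typical member. In the lists of those tissues the overlapping domains ranked 8 and 6.

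**Figure D2:**
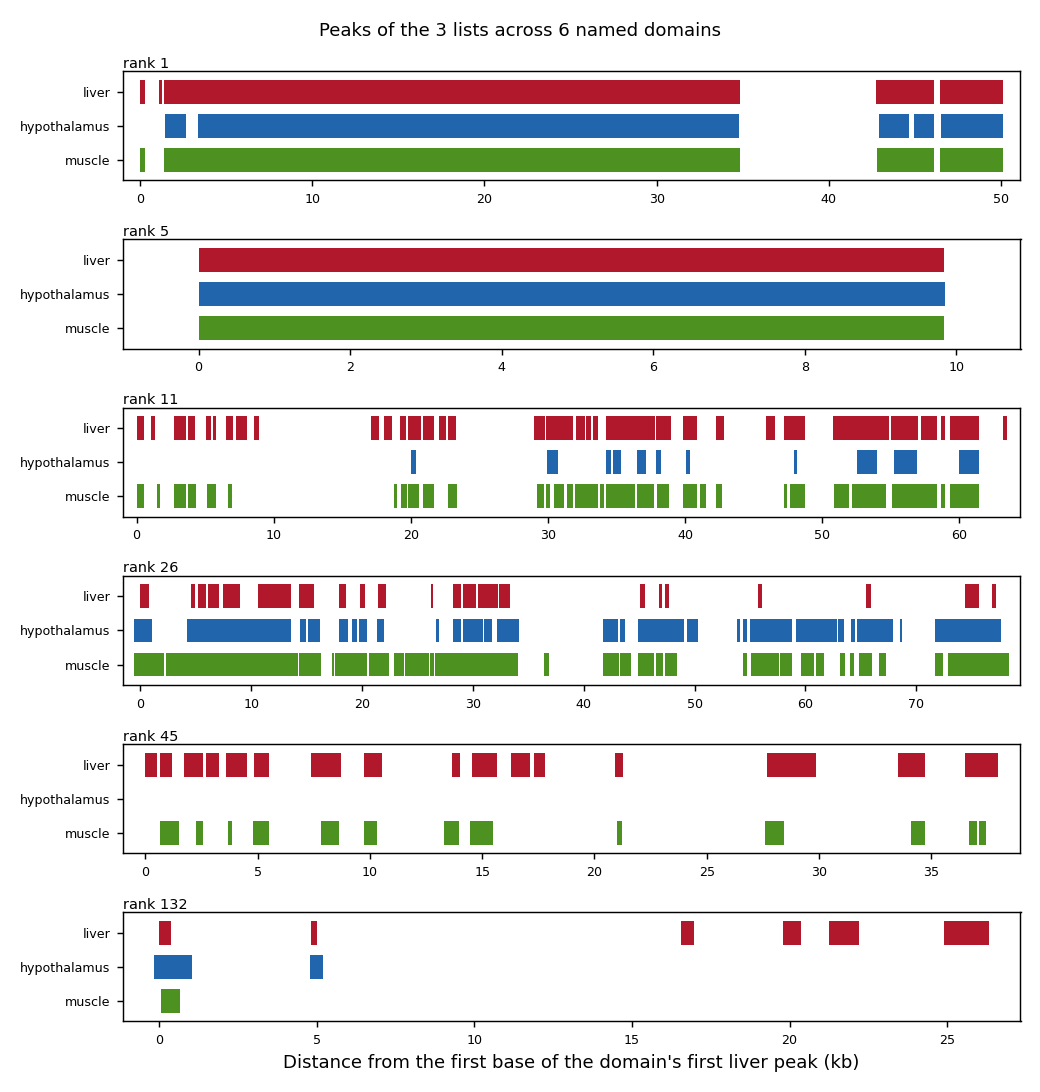
Peaks of the 3 lists are drawn as blocks across the domains ranked 1, 5, 11, 26, 45 and 132, with the distance in kb from the first base of the first liver peak on the x axis and 1 row per tissue. The long blocks of ranks 1 and 5 recur in all 3 rows, rank 45 has no hypothalamus peak, and rank 132, over FGG, has 6 liver peaks beside 2 hypothalamus peaks and 1 muscle peak.

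Nearly all members were open in the other tissues. A member was counted as open in a tissue when at least 1 of its liver peaks overlapped a peak of that tissue by 1 bp or more. Of the 300 members, 293 were open in hypothalamus (97.7%, Wilson 95% interval 95.3 to 98.9) and 299 in muscle (99.7%, 98.1 to 99.9). The background was high as well, since 93.9% of all liver domains were open in hypothalamus and 90.4% in muscle. A longer domain has more places to overlap, and among single-peak domains the shares in hypothalamus were 98.6% (92.2 to 99.7) of 69 members and 93.3% (92.7 to 93.9) of 6372 others. In muscle they were 98.6% (92.2 to 99.7) and 89.1% (88.3 to 89.8). Open in neither was 1 member (0.333%, 0.0589 to 1.86), beside 4.09% of all liver domains. The intervals here and below cover counting error only. Neighbouring domains are not independent, and neither are peaks of the same domain, so intervals over peaks are too narrow.

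Peak by peak, the order was the other way round. Of the 1284 peaks in members, 894 overlapped a peak in both other tissues (69.6%, 67.1 to 72.1), against 85.3% (84.6 to 86.0) of the 9181 peaks in other liver domains. The difference lay in hypothalamus, where 72.9% (70.4 to 75.3) of member peaks and 92.3% (91.7 to 92.8) of the others were open. In muscle the shares were 85.5% (83.5 to 87.3) and 87.8% (87.1 to 88.4). Open in muscle and not in hypothalamus were 204 member peaks (15.9%, 14.0 to 18.0) and 2.43% (2.13 to 2.76) of the others. A further 144 member peaks (11.2%, 9.60 to 13.1) were open in neither, against 5.32% (4.87 to 5.79) of the others. They lay in 50 members, while 211 members had every peak open in both. Members with many peaks weigh most in these shares over peaks. In the members with 22 or more peaks, ranked 11, 23, 25, 44 and 26, the peaks open in hypothalamus were 9 of 33, 6 of 26, 3 of 25, 6 of 23 and 21 of 22. The lower share in hypothalamus is therefore not a trait of member peaks in general. When only liver peaks whose summit −log10 p reached 5 were joined, the strongest 300 domains had 571 peaks, of which 96.1% were open in both other tissues.

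Where a peak of another tissue overlapped the strongest liver peak of a member, the summits lay close together, as in the other liver domains. The overlap itself limits how far apart they can lie. From the summit of the strongest liver peak of a member to the nearest summit among the hypothalamus peaks overlapping that liver peak, the median distance was 41 bp over 290 members, with quartiles of 6 and 155 bp. To muscle the median distance was 40 bp over 298 members, with quartiles of 7 and 124 bp. Over the other liver domains the medians were 33 and 31 bp. The largest distances, 5147 bp to hypothalamus and 8517 bp to muscle, both belonged to the 29165 bp peak of the domain ranked 3.

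Hypothalamus and muscle AUC were not used by the rule, and they separated the members into unlike sets. Across the liver domains with peaks of both tissues, the hypothalamus AUC was a median of 4.30 times the muscle AUC, and it was below the muscle AUC in 3.56% of 6968. Among the members it was below the muscle AUC in 63 of 293 (21.5%, 17.2 to 26.6). The AUC is not scaled between lists, so a ratio of 1 has no meaning of its own, and it serves here only as a fixed limit for comparing domains. The low ratios stood at the top of the liver ranking. Of the members ranked 1 to 50, 37 of 48 with both tissues were below the limit, with a median ratio of 0.680. In ranks 51 to 100 this held for 12 of 47, and in ranks 101 to 150 for 7 of 49. In ranks 201 to 250 it held for 0 of 50, with a median ratio of 3.42. The share of 21.5% became 51.6% of 95 with only the 100 strongest domains kept and 33.7% of 291 with no limit on the start. It was 25.5% and 18.2% with gaps of at most 5 and 25 kb, 19.9% with domains ranked by their highest peak, and 19.0% and 17.1% with a summit limit of 5 in liver and in every list.

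**Figure D3:**
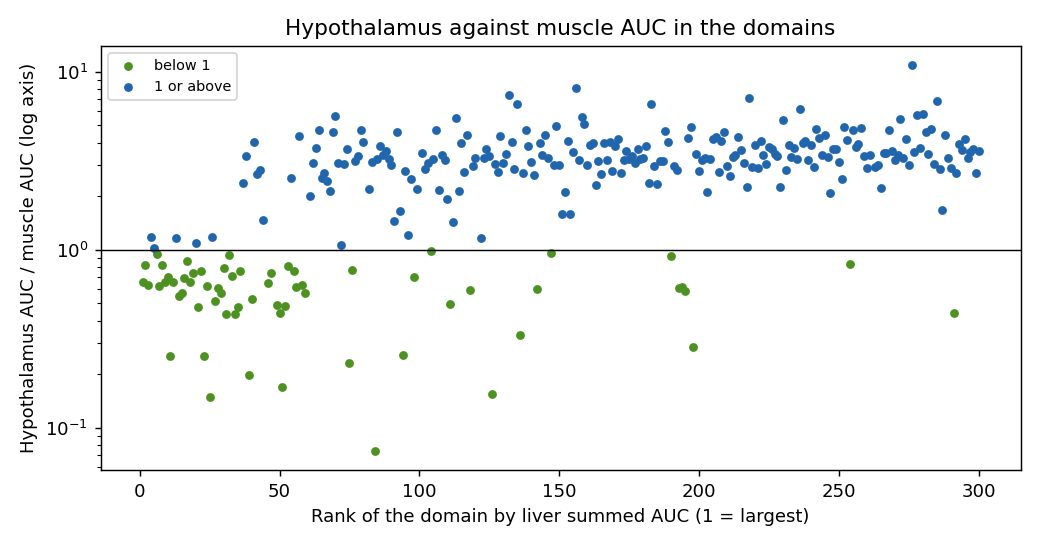
Each point is 1 of the 293 domains with peaks in both other tissues, with its liver rank on the x axis and the ratio of hypothalamus to muscle AUC on a log y axis. The 63 points below the line at 1 are gathered at the left, where 37 of 48 of the first 50 ranks lie, and the median from rank 251 on is 3.54.

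The summit −log10 p of the hypothalamus list changed along the ranking in the same place. Its highest value in a member was a median of 9.75 in ranks 1 to 50, and the medians of the later groups of 50 were between 21.3 and 22.4. The muscle summits hardly varied, with medians of 10.9 to 11.5 over the 6 groups of 50. The liver summits had a median of 10.5 in ranks 1 to 50 and medians of 7.24 to 7.44 after that. Domain by domain, the hypothalamus summit was above the liver summit in 15 of the first 50 members and in 224 of the other 250.

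**Figure D4:**
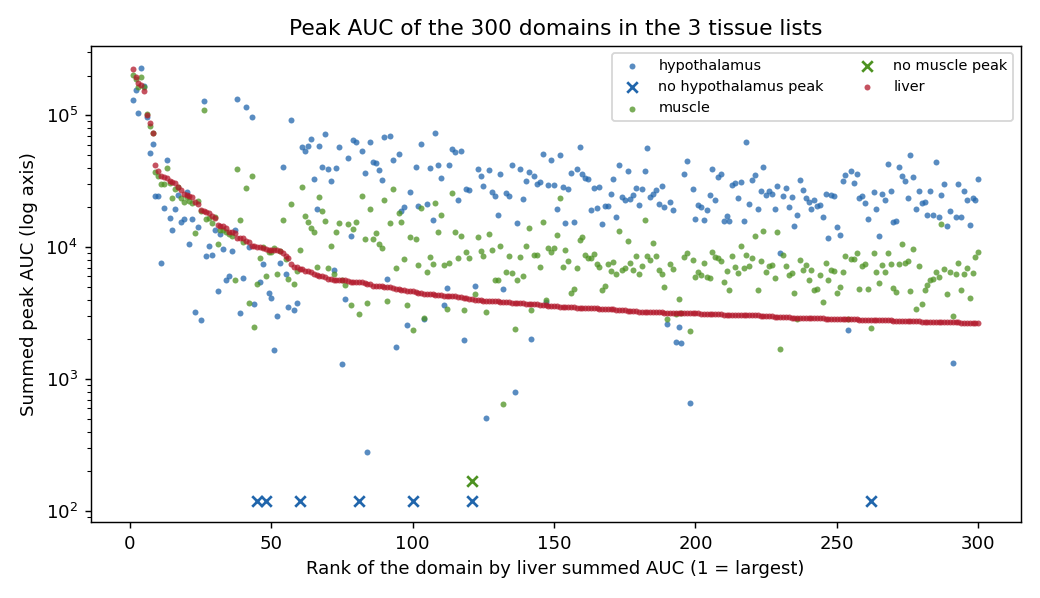
The summed AUC of each of the 300 domains is plotted on a log y axis against its liver rank, with 1 point for each tissue list and a cross where a list has no peak. Muscle and liver points lie together over the first ranks and part after about rank 50, where hypothalamus and muscle points lie mostly above the liver points, and crosses mark the 7 members without a hypothalamus peak and the 1 without a muscle peak.

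In the 63 members with the lower hypothalamus AUC, the muscle AUC was a median of 0.926 times the liver AUC, with quartiles of 0.872 and 0.998, and the hypothalamus AUC a median of 0.556 times. In the 230 with the higher hypothalamus AUC the medians were 2.33 and 8.17 times. The liver AUC chose the members, so these ratios are descriptions. Among the 10 strongest, the domain ranked 1 had 200271 in muscle and 131604 in hypothalamus beside 223910 in liver, and that ranked 8, near TNNT2, had 73803 and 60914 beside 73563. The exceptions near the top were the MIR2887 domains, with hypothalamus AUCs of 229840 on chromosome 27 and 166945 on chromosome 2, both above the muscle AUCs of 195019 and 163744.

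The 2 sets also differed in where their peaks lay, as far as the genes are annotated here. The full annotation of the liver peaks used here covers chromosomes 1 to 4 up to base 112837583 of the last, with 46 members. A gene start site was located inside 24 of these (52.2%, 38.1 to 65.9), the same share as in all liver domains of that part (52.4%). At least 2 start sites lay in 11 of the 46 (23.9%, 13.9 to 37.9) and in 3.59% (2.72 to 4.73) of the other domains, which are shorter. Of the members with the higher hypothalamus AUC, 24 of 38 held a start site (63.2%, 47.3 to 76.6), and of those with the lower one 0 of 8 did (0 to 32.4). Peak by peak, 59 of 109 peaks of the former were at promoters (54.1%, 44.8 to 63.2) and 0 of 56 of the latter (0 to 6.42), of which 51 were distal intergenic (91.1%, 80.7 to 96.1). A single member, ranked 11, gave 33 of these 56 peaks, and without it 18 of 23 were distal intergenic and 0 at promoters. Over all chromosomes, where start sites are located only in part, 3 members with the lower hypothalamus AUC held one (DEFB13, IFNB3 and ULBP21) and 68 with the higher one did. Only start sites nearest to some annotated peak could be located, so a start site can be missing from these counts.

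Members with a higher hypothalamus AUC included clusters of promoters of genes used in most cells. These genes, and those of metabolism and signalling named after them, were chosen after their values were seen. A domain of 5 peaks at chr3:14069989-14106420, ranked 79, held the start sites of HDGF, ISG20L2, MRPL24 and PRCC, with an AUC of 5480 in liver, 13701 in muscle and 64618 in hypothalamus. Ribosomal protein genes had start sites in 3 such members, RPL24 in the domain ranked 143 with a liver AUC of 3696, RPL36 in that ranked 179 with 3261, and RPL23A in that ranked 183 with 3238. The hypothalamus AUC of these was 34472, 27856 and 56835 in the same order. CIRBP, a cold-inducible RNA-binding protein, lay in the domain ranked 38 with 11812 in liver, 39410 in muscle and 132358 in hypothalamus.

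Genes of metabolism and signalling were among them. CRTC2, a coactivator of CREB in the fasting response, shared the domain ranked 73 (chr3:16461272-16490023) with JTB and SLC39A1, and its AUC was 5651 in liver, 13078 in muscle and 39685 in hypothalamus. NAMPT, the enzyme that makes nicotinamide mononucleotide for NAD, lay in a single peak ranked 211 with 3079, 6588 and 17191. MCL1, which blocks apoptosis, lay in the domain ranked 107 with 4391, 7471 and 16167. HEXIM1, an inhibitor of transcription elongation, lay in that ranked 103 with 4459, 19755 and 60619. In each of these the liver value was the lowest and the hypothalamus value the highest. Over all members, the muscle AUC was above the liver AUC in 236 and the hypothalamus AUC above it in 229, while the liver AUC was above both in 56.

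Among the gene lists compared, members held the start sites of 5 genes. FGG, the gamma chain of fibrinogen, was the one plasma protein gene of 9 located (of 30 listed) that lay in a member. AMBP was in another liver domain, and the other 7 were in no liver domain, among them TF (transferrin), AHSG (fetuin) and CP (ceruloplasmin). Of the early response genes, 3 of 7 located lay in members. They were JUND and JUNB, subunits of the AP-1 transcription factor, and ZFP36, which speeds the decay of messenger RNA with AU-rich elements. Of the housekeeping genes 1 of 7 did, ACTB, cytoplasmic beta-actin. No member held a located gene of lipid transport and bile acids (0 of 5), of amino acid, urea and glucose metabolism (0 of 4), of the hepatocyte transcription factors (0 of 5) or of the circadian clock (0 of 1), and no gene of drug metabolism and redox was located. Over all 2001 located gene symbols, 87 lay in members and 911 in other liver domains. These lists are too thinly located to describe a pathway, and 0 of the 10 hepatocyte markers were located, so the tissue label could not be checked this way.

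The FGG domain had the lowest muscle AUC relative to liver of all members with a muscle peak. It lay at chr17:2823927-2850251, ranked 132, and held 6 liver peaks with a sum of 3833. The muscle list had 1 peak there with an AUC of 647, which is 0.169 times the liver sum, and the hypothalamus list had 2 peaks with 4795. The annotated start site of FGG, base 2840865 of chromosome 17, lay inside the liver peak at chr17:2840475-2840888, which had no overlap in either other tissue. The strongest peak of the domain, chr17:2848814-2850251 with an AUC of 2352, had none either, so 4 of the 6 peaks were open in liver alone. Apart from the strongest, these were weak, with AUCs of 247 to 419 and summit −log10 p values of 3.27 to 3.74. The peak at the start site had the AUC of 247, and the lowest AUC in the liver list is 200. The 2 peaks with overlap were the first ones, at chr17:2823927-2824316 and chr17:2828747-2828940.

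In the early response domains the muscle and hypothalamus AUCs were both above the liver AUC, as in most members and as is usual over all liver domains. JUND lay in the domain ranked 61 (chr7:4880674-4917481) with 8 peaks and an AUC of 6789 in liver, 28447 in muscle and 57532 in hypothalamus. ZFP36 lay in that ranked 82 (chr18:49091477-49107804), where all 6 liver peaks were open in both tissues, with 5455, 24399 and 53943. JUNB lay in that ranked 85 (chr7:12727283-12749112), also with all 6 peaks open in both, with 5244, 19599 and 63204. ACTB lay in that ranked 182 (chr25:38784407-38800248) with 5 peaks, all open in both, and 3240, 15951 and 37740. The AUC rose from liver to muscle to hypothalamus in all 4.

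Only 7 members had no liver peak open in hypothalamus, and 6 of them were open in muscle. Together they held 63 liver peaks, of which 45 overlapped a muscle peak. The highest liver summit −log10 p of each of the 7 lay between 4.12 and 5.20, against a median of 7.53 over all members. With only liver peaks of a summit of at least 5 joined, 100% of the strongest 300 domains were open in hypothalamus. The domain ranked 48 (chr18:62656866-62674309) had 12 peaks and an AUC of 9727 in liver and 6090 in muscle, with KIR3DS1, annotated as a killer cell immunoglobulin-like receptor, nearest. That ranked 60 (chr18:57217359-57234322) had 8 peaks and 6841 and 9467, with LOC100138951, a CD33-like gene, nearest. That ranked 81 (chr27:6913979-6921922) had 7 peaks at a beta-defensin gene, DEFB, with 5467 and 3111. That ranked 100 (chr5:102741383-102801078) had 14 peaks and 4672 and 2376, with WC1, a scavenger receptor of γδ T cells in cattle, nearest.

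Of the other 3, a gene is named for 2. The domain ranked 45 (chr18:50653507-50691483) had 16 peaks nearest DMAC2, an assembly factor of the mitochondrial respiratory chain, with 9980 in liver and 5239 in muscle. That ranked 262 (chr23:26719471-26728212) had 5 peaks nearest NOTCH4, with 2801 and 2432. The one member open in neither tissue was ranked 121, a single peak of 3599 bp at chr18:50134877-50138475 with an AUC of 4022 and a summit −log10 p of 4.84. No gene is given for it in the annotation used here.

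Beta-defensins, small antimicrobial peptides coded by a tandem gene family, made up the run of neighbouring members with the most peaks. From chr27:6216816 to base 7203795, 6 members held 101 liver peaks with an AUC of 230796 in liver, 222786 in muscle and 260215 in hypothalamus. Most of these sums lay in the MIR2887 domain at its edge. Without it, 5 members and 98 peaks remained, with 61449 in liver, 27767 in muscle and 30375 in hypothalamus. The domain ranked 23 held DEFB13, with 26 peaks and 22038 in liver, 12727 in muscle and 3222 in hypothalamus. That ranked 37 held DEFB3 and DEFB6, with 12911, 5687 and 13460. That ranked 42 held DEFB10, with 10894, 3751 and 9998, and that ranked 44 held DEFB5 and EBD, with 10139, 2491 and 3694. Muscle was below liver in all of these, and 38 of the 98 peaks were open in neither other tissue. That share was 11.2% over all member peaks and 5.32% over the peaks of other liver domains. The highest liver summit −log10 p of each of the 5 members lay between 4.22 and 5.63. The median over all members was 7.53.

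Members over other gene families of the immune system were chosen after their values were seen. IFNB3, a type I interferon gene, lay in the domain ranked 31 (chr8:23179796-23213773) with 13 peaks and 14678 in liver, 10630 in muscle and 4643 in hypothalamus. ULBP17 and ULBP21, ligands of an activating receptor of natural killer cells, lay at the domains ranked 94 and 111 on chromosome 9. The former had 4825 in liver, 6908 in muscle and 1765 in hypothalamus, and the latter 4290, 7355 and 3658. Muscle was above liver in both. Such families hold similar gene copies, and the peak caller divided reads that aligned to more than 1 place among those places. The share of such reads is not given per peak, and its part in these values was not tested.

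Members were spread unevenly over the chromosomes. Chromosome 18 held 26 of them, or 6.39% (4.40 to 9.20) of its 407 liver domains, against 3.81% over all chromosomes. Chromosome 27 held 7 of its 86 domains (8.14%, 4.0 to 15.9), chromosome 23 held 14 of 210 (6.67%, 4.01 to 10.9), chromosome 2 held 6 of 363 (1.65%, 0.760 to 3.56), chromosome 13 held 2 of 289 (0.692%, 0.190 to 2.49) and chromosome 28 held 0 of 137 (0 to 2.73). Chromosome 21 had 10 members with a summed AUC of 555760, the largest of any chromosome. Of the 300 members, 177 lay within 1000000 bp of another, and 16 runs of such neighbours held 4 or more members. These counts were not made for the other liver domains, so they do not show whether members lie closer together than other domains do.

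**Figure D5:**
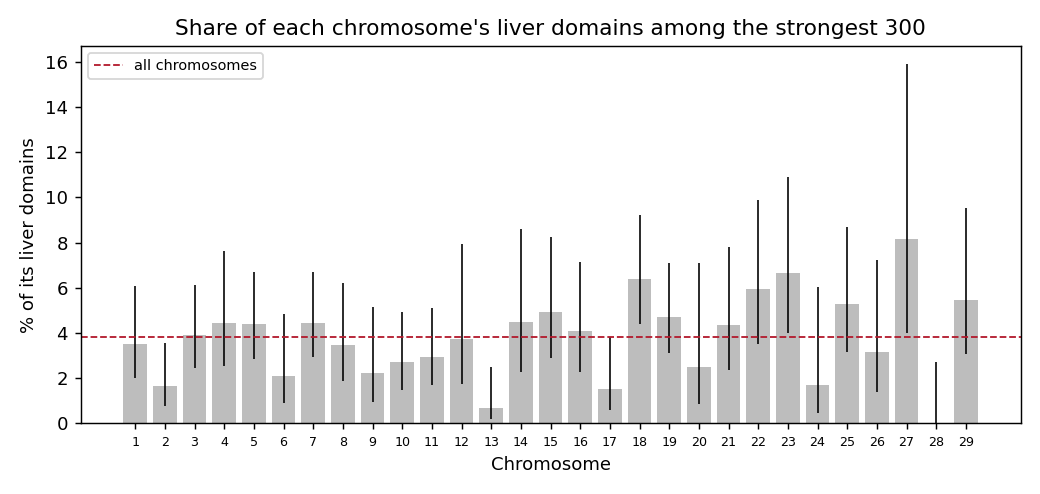
Grey bars give the percentage of the liver domains of each chromosome that are among the 300, with Wilson 95% intervals as black lines and the value over all chromosomes (3.81%) as a dashed line. The intervals of chromosomes 18, 23 and 27 lie above the line, and those of chromosomes 2, 13 and 28 below it.

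The runs with the most members lay on 3 chromosomes. On chromosome 18, 9 members lay between bases 55035173 and 57309998 with 60 peaks, including ALDH16A1, and had 53660 in liver, 104302 in muscle and 268760 in hypothalamus. On chromosome 19, 8 members between bases 26434204 and 27833819 held 35 peaks, including TNFSF13 and TMEM107, with 30418, 107927 and 362208. On chromosome 22, 7 members between bases 48654315 and 50983981 held 31 peaks, including GNAI2 and MAPKAPK3, with 30918, 86212 and 262007. All members of the last 2 runs had a hypothalamus AUC above the muscle AUC. This is the usual order, since the hypothalamus AUC was below the muscle AUC in only 3.56% of 6968 liver domains with peaks of both. A run on chromosome 15, between bases 83940792 and 84957429, had the reverse in all 4 of its members, with 70970 in liver, 59043 in muscle and 37677 in hypothalamus. Its strongest member, ranked 15, lay nearest a gene like those of the membrane-spanning 4-domains subfamily A. The others lay nearest an olfactory receptor gene.

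The members were compared with the domains that the same rule gives in the other lists. The rule gave 30174 domains from 68177 hypothalamus peaks and 15556 domains from 28554 muscle peaks, and the 300 with the largest sums were kept in each. Of the liver members, 93 overlapped a strongest hypothalamus domain (31.0%, 26.0 to 36.4) and 122 a strongest muscle domain (40.7%, 35.3 to 46.3). Counted from the other side, 87 of the 300 hypothalamus domains (29.0%) and 118 of the 300 muscle domains (39.3%) overlapped a liver member. In both lists at once were 71 members (23.7%, 19.2 to 28.8), and 156 (52.0%, 46.4 to 57.6) were in neither. Among the other liver domains 5.54% overlapped a strongest hypothalamus domain and 3.35% a strongest muscle domain. The 3 lists come from the same heifers, and the overlap is given without a test.

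The ranks show the same contrast at the top. The muscle domains over the 10 strongest liver members were ranked 1, 3, 5, 2, 4, 7, 10, 11, 19 and 21 in the muscle list. In the hypothalamus list their ranks were 18, 9, 45, 2, 7, 53, 260, 194, 1116 and 190. Over the first 50 members the median rank was 74 in muscle and 3080 in hypothalamus. In ranks 51 to 100 the medians were 228 and 308, and in ranks 251 to 300 they were 682 and 792. The hypothalamus list has more domains, so its ranks run higher.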

How the data were processed

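ATAC-seq of liver, muscle and hypothalamus from 3 heifers was analysed from the deposited consensus peak lists, 1 per tissue. Alignment by the authors used HISAT2 and the ARS-UCD1.2 build, with at most 10 placements kept for a read. Their peak caller, Genrich 0.6.1, dropped PCR duplicates and the mitochondrial sequence, split multi-placed reads into fractions, and merged the p values of the heifers by Fisher's method. The deposited signal is the AUC, and the deposited summit value is a −log10 p. Neither was scaled between lists, and read depth is not given in them.

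Peaks were joined and ranked with python 3.11.15, numpy 2.4.6, pandas 2.3.3, scipy 1.17.1 and matplotlib 3.10.9, tested on simulated lists. Starts are printed from 1. An overlap was 1 bp or more, a tissue's AUC in a domain was summed over its peaks overlapping the span, and shares have Wilson 95% intervals. The rule used 46.9% of the liver peaks and 24.0% of the liver AUC, since 45.9% of peaks lie on other sequences.

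Gene names and features are the authors' annotation joined by peak name, complete for liver on part of chromosomes 1 to 4 and elsewhere limited to peaks that the authors list apart. Named domains are the 10 strongest, the one with most peaks, the longest, 3 on each side of the limit, those closed in another tissue, and those over a listed gene. Members and lists were chosen with earlier results of these data known. No sequence is printed, as no genome of this build was used here. The genes of 2 domains are not reported here.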

Additional observations from a re-analysis of the deposited data

How the results depend on the processing

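Of 68 alternatives over 8 results, 34 stayed within the interval of the reported value (or within 1.5 times for the count of peaks) and 34 moved. The count of 1284 peaks became 750 with domains ranked by their highest peak, 726 with the strongest 100 domains, and 571 with liver peaks of a summit of at least 5, also when this limit was set in every list. The median length of 9096 bp became 2727 bp with gaps of at most 5 kb, 31402 bp with 25 kb, 1418 bp by the highest peak, 18075 bp for 100 domains, 1616 bp with either summit limit, and 11920 bp with no limit on the start.

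The share of members open in hypothalamus became 99.0% with 25 kb and by the highest peak, 95.0% for 100 domains, and 100% with the liver summit limit. In muscle it became 100% for 100 domains and with the liver summit limit, and under both the share open in neither became 0%. The share of peaks open in both other tissues became 72.7% with 25 kb, 76.9% by the highest peak, 56.9% for 100 domains, 96.1% with the liver summit limit, 87.7% with the limit in every list, 61.9% with no limit on the start, 66.5% with 50% of the liver peak covered, and 77.3% with peaks within 1 kb counted. The share overlapping the strongest hypothalamus domains became 19.3% with 5 kb, 46.3% with 25 kb, 17.0% for 100 domains, 22.3% with the liver summit limit, and 21.7% with the limit in every list. That for muscle became 50.7% with 25 kb and 53.7% by the highest peak. The causes were not tested.

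No paired analysis was possible because the values of the 3 heifers were merged in each list, and for the same reason no library was left out. Depth per library is not given in the lists. The paper gives mapping statistics per sample, which were not used here, and the share of peaks missed at low depth is unknown.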

Other observations

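Liver signal above the limit of the members (a summed AUC of 2660) was also found where the rule did not look. With chromosome X added and no limit on the start, 46 domains starting in the first 1000000 bp of chromosomes 1 to 29 and 38 domains on chromosome X reached it. The former had a median sum of 15044 and the latter of 9526, and the highest of each were chr23:480-54952 with 407755 in 3 peaks and chrX:84649363-84682755 with 238530 in 7 peaks. Another chromosome X domain, chrX:123848959-124116034, held 108 peaks with a sum of 214663. Over the whole liver list, 64.9% of the AUC lay on sequences other than chromosomes 1 to 29 and X. In muscle this share was 37.7% and in hypothalamus 8.86%.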
